A study of Mus musculus with 12 samples.

Results

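The 37 genes described here encode enzymes of fatty acid oxidation and ketone body metabolism together with targets and regulators of the nuclear receptor PPARα. They were taken by symbol from a deposited table of 57180 genes, and all 37 matched a row. The study measured RNA in 12 mouse libraries, 3 in each of 4 groups. In liver, 3 libraries came from C57 mice dosed with CCl4 (carbon tetrachloride), which damages hepatocytes once cytochrome P450 enzymes activate it, and 3 from C57 mice dosed with vehicle. In dorsal skin, 3 libraries came from CX3CR1+ cells of CCl4-treated Cx3cr1-creER:Ai9 mice and 3 from such cells of vehicle-treated Cx3cr1-creER:Ai9 mice. All mice of the skin groups carried the Cx3cr1-creER allele, in which a tamoxifen-inducible Cre is driven from the Cx3cr1 locus, and the Ai9 reporter, which turns on a red fluorescent protein in cells where Cre has acted. The liver libraries are bulk RNA-seq and the skin libraries are smart-seq, which amplifies full-length cDNA from little RNA. The labels state no dose, interval after dosing, age or sex. The design text speaks of hepatocytes and of biological replicates, but the labels name the tissue as liver, which is the term used below. All values are TPM, a transcript abundance corrected for length and scaled to one total in every library.

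Fatty acids enter mitochondria as carnitine esters and are shortened by β-oxidation, a spiral of dehydrogenation, hydration, a second dehydrogenation and thiolysis, whose electrons pass through the electron transfer flavoprotein to the respiratory chain. Peroxisomes run a separate set of β-oxidation enzymes on very long, branched and dicarboxylic acids. In liver the acetyl-CoA formed feeds ketone body synthesis in fasting, and PPARα, partly with the liver transcription factor CREB3L3, drives transcription of most of these genes. The genes were arranged in 8 role lists: 2 regulators, 4 genes of carnitine handling, 10 of the mitochondrial spiral, 3 of electron transfer, 6 peroxisomal genes, 4 acyl-CoA thioesterases, 2 ketone body genes and 6 other targets. For the comparison of steps, carnitine handling, the spiral and electron transfer were grouped as 17 mitochondrial genes.

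PPARα binds DNA with RXR at direct repeats of a hexamer spaced by 1 base, and the promoters show which of the genes carry such letters near their start. Promoter sequences came from RefSeq on GRCm38.p6, an older build than the GRCm39 named for the expression table, and covered 31 of the 37 genes. The motif, AGGTCA repeated after any 1 base, was searched on both strands in the 250 bases before and 50 bases after each start, with at most 2 mismatches in its 12 fixed letters. A match was present in 6 of the 31 genes, against 4.40% of 27025 genes with a listed promoter. The closest was in Fabp1, the liver fatty acid binding protein, with 1 mismatch at 67 bases before the start. Plin2, which encodes the lipid droplet coat protein perilipin 2, had a match with 2 mismatches at 225 bases before the start. These promoters are shown because Fabp1 was the most abundant of the 37 genes in liver and Plin2 in skin, and because these genes moved apart in liver. Each runs 5′ to 3′ on the gene's strand over the 250 bases before the start, with the matching bases in capitals. The Fabp1 sequence is chr6:71199629-71199878 on the plus strand and the Plin2 sequence is chr4:86670060-86670309 on the minus strand.
Fabp1: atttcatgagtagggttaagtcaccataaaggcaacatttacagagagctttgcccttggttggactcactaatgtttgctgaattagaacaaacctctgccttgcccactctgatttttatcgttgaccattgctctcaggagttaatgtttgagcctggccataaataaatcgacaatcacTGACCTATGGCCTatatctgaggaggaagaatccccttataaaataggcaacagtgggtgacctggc
Plin2: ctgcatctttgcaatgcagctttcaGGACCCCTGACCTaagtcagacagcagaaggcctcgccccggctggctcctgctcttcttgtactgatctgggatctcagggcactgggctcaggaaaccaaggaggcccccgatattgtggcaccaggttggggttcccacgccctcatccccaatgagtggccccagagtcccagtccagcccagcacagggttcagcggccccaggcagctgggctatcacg
The other 4 matches had 2 mismatches each and are given as the 13 bases on the gene's strand.
Creb3l3: AGGGGAGAGGTCA
Slc25a20: AGGTGAAAGGTCG
Etfa: TTACCTTTGCCCT
Acot4: TGACCTTTGGCCG
The Creb3l3, Etfa and Acot4 matches lay 209, 77 and 13 bases before the start, and the Slc25a20 match lay 7 bases after it. These are matches of letters and not measured binding.

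Hadha and Hadhb, which encode the α and β subunits of the mitochondrial trifunctional protein, start 273 bases apart on opposite strands of chromosome 5 and so share their upstream sequence. The 250 bases before the Hadhb start, chr5:30155003-30155252 on the plus strand of GRCm38.p6, are shown with the 228 bases that also belong to the Hadha window in capitals. Neither window held a match to the motif.
Hadhb: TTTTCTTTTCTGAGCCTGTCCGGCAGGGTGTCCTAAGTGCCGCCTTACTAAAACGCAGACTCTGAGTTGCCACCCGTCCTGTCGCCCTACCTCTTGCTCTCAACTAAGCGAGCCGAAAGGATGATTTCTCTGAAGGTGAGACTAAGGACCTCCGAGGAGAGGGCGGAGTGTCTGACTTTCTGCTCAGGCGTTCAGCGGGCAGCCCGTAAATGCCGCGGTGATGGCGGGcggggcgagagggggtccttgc

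One property of the liver libraries bears on every liver value. Mitochondrially encoded transcripts and 11 nuclear pseudogenes that are near copies of them held 68.1% to 82.1% of all TPM in CCl4 livers, against 25.7% to 28.4% in vehicle livers. Because TPM has a fixed total, all other genes had a smaller remainder to share in CCl4 livers. Each liver change is therefore given on the deposited scale and again with TPM rescaled to the same total without those genes, called the rescaled values. The median of all genes tested was -0.59 (log2) as deposited and 0.85 rescaled. In the skin libraries the same genes held 0.843% to 4.66%. Hepatocyte markers were abundant in liver, summing as deposited to 18149 to 42659 TPM in CCl4 livers and 89958 to 98909 TPM in vehicle livers. Rescaled, the sums overlapped, at 101377 to 133764 in CCl4 livers and 125616 to 133523 in vehicle livers. In skin, CCl4 replicate 3 stood apart, with a sum of 11.5 TPM over 8 macrophage markers against 832 to 5731 TPM in the other 5 skin libraries, and 165 TPM over 6 Langerhans and dendritic cell markers against 11115 to 43214 TPM. The CX3CR1+ label of that library is thus not borne out by these markers. The skin libraries numbered 1 listed 28357 (CCl4) and 28870 (vehicle) genes above 0, against 21328 to 23494 in the other 4.

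In liver, most of the 37 genes had lower TPM after CCl4, and 4 were called lower once the mitochondrial transcripts were set aside, all enzymes of oxidation or ketone body metabolism except Angptl4. On the deposited scale 31 of the 37 genes were lower, 1 was higher and 5 were not called (limma, Benjamini-Hochberg adjusted p under 0.05 over 10385 genes). Of all genes tested, 51.1% were lower and 10.3% higher. The median change of the 37 was -1.89 (log2), against -0.59 over all genes. After rescaling 4 were lower (Angptl4, Acaa1b, Acat1 and Decr2), 5 were higher (Fgf21, Acot2, Pdk4, Plin2 and Acot4) and 28 were not called, where 4.2% of 10362 genes were lower and 66.8% higher. The median of the 37 was then -0.26, against 0.85 over all genes. The 10 hepatocyte markers had lower medians than the 37, at -2.23 as deposited and -0.52 rescaled. With 3 livers per group the groups did not overlap for 31 of the 37 genes as deposited, of which Fgf21 alone lay higher. Of all genes, 58.8% lay lower without overlap and 11.4% higher. Rescaled, the groups did not overlap for 14 of the 37, where 6.09% of all genes lay lower and 71.5% higher. Of these 14, the 5 called higher lay higher, and Acaa2, Etfdh, Acaa1a, Acaa1b, Decr2, Crot, Acat1, Angptl4 and Fabp1 lay lower. Without any 1 liver library the rescaled calls of Decr2 (lower) and of Acot2, Plin2 and Pdk4 (higher) were kept, while Angptl4, Acaa1b, Acat1 and Acot4 each lost theirs without some library, Acat1 and Acaa1b among them without any 1 of the vehicle livers. Acot4 lost its call without CCl4 replicate 1 and without vehicle replicate 2 (limma adjusted p up to 0.0543). Fgf21, the gene called higher on both scales, passed the filter on low values only through its CCl4 libraries, where it was high. Leaving out any 1 of those removed it from the test.

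**Figure D1:**
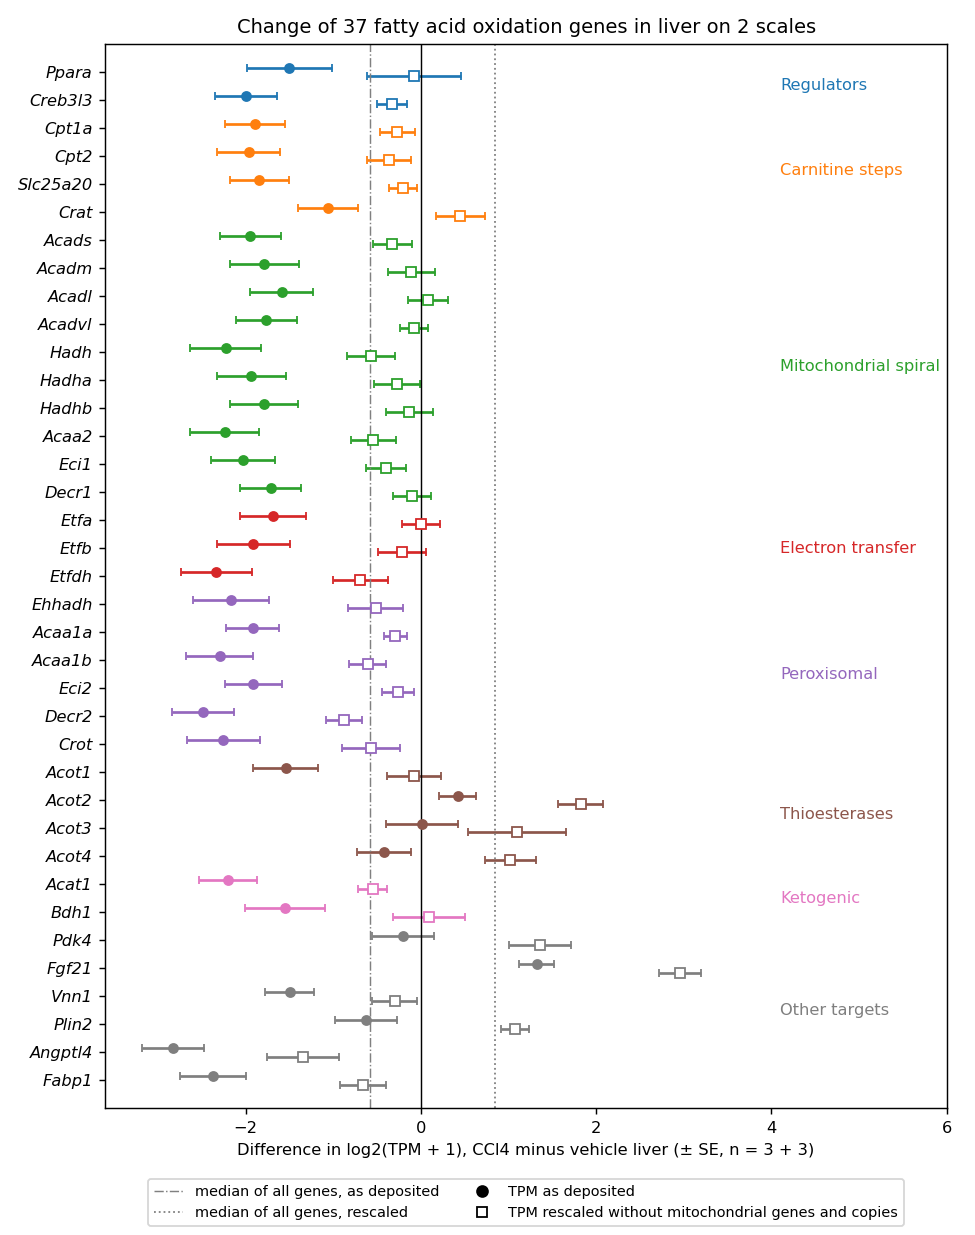
Difference in log2(TPM + 1) between CCl4 and vehicle livers for each of the 37 genes, ± SE, with 3 libraries per group. Filled circles are TPM as deposited and open squares are TPM rescaled without mitochondrially encoded genes and their near copies; vertical lines mark the medians of all genes, -0.59 and 0.85. As deposited 34 of 37 values lie below 0, and rescaled 27 do, with Crat, Acadl, Etfa, Bdh1, Acot4, Pdk4 and Plin2 on the other side.

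The regulators were lower on the deposited scale and near 0 after rescaling. Ppara, the receptor itself, had 3.85, 1.34 and 12.6 TPM in CCl4 livers, against 14.5, 14.6 and 13.5 TPM in vehicle livers. CCl4 replicate 3 was close to the vehicle livers and CCl4 replicate 2 was far below them. The call depended on CCl4 replicate 1, without which Ppara stood at -1.43 (limma adjusted p = 0.103). The difference was -1.50 ± 0.48 (log2, SE; limma adjusted p = 0.0190) and -0.08 rescaled (adjusted p = 0.898). Creb3l3, a membrane-bound transcription factor released by proteolysis, had 23.4, 21.5 and 48.7 TPM in CCl4 livers, against 102, 136 and 122 TPM in vehicle livers. All 3 CCl4 livers were below all vehicle livers, with a difference of -1.999 ± 0.35 (limma adjusted p = 0.000872) and -0.33 rescaled (adjusted p = 0.121).

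The carnitine genes fell together as deposited and none was called rescaled. Cpt1a, the rate-limiting carnitine palmitoyltransferase of the outer mitochondrial membrane, had 10.6, 8.49 and 22.8 TPM in CCl4 livers and 49.3, 51.9 and 49.5 TPM in vehicle livers. Slc25a20, the carnitine-acylcarnitine carrier of the inner membrane, had 11.3, 10.97 and 25.4 TPM in CCl4 livers and 52.4, 56.9 and 57.1 TPM in vehicle livers. In both genes CCl4 replicate 3 was the highest of the CCl4 livers and still far below the lowest vehicle liver. The differences were -1.89 ± 0.34 for Cpt1a (limma adjusted p = 0.00100) and -1.85 ± 0.34 for Slc25a20 (limma adjusted p = 0.00101), or -0.27 and -0.21 rescaled. Cpt2, the inner-membrane transferase that releases the acyl group, changed by -1.97 (rescaled -0.37). Crat, the transferase for short acyl groups, changed least of the 4, by -1.064 with overlapping groups (-0.92 and no longer called without CCl4 replicate 1, limma adjusted p = 0.103), and stood at 0.45 rescaled (adjusted p = 0.186).

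All 10 genes of the mitochondrial spiral were lower as deposited, by -1.59 to -2.24, and none was called rescaled, with values of -0.57 to 0.08. Acaa2, the mitochondrial 3-ketoacyl-CoA thiolase, was the most abundant and had 87.4, 50.6 and 157 TPM in CCl4 livers, against 415, 414 and 439 TPM in vehicle livers. Its difference was -2.24 ± 0.39 (limma adjusted p = 0.000877), or -0.54 rescaled (adjusted p = 0.0925). The acyl-CoA dehydrogenases, which take the first step at different chain lengths, changed by -1.95 for Acads, -1.79 for Acadm, -1.59 for Acadl and -1.76 for Acadvl. Hadh, the short-chain 3-hydroxyacyl-CoA dehydrogenase of the second dehydrogenation, changed by -2.23. Of the trifunctional protein for long chains, the α subunit gene Hadha (hydration and second dehydrogenation) changed by -1.94 and the β subunit gene Hadhb (thiolysis) by -1.79. The auxiliary enzymes for unsaturated fatty acids gave -2.03 for Eci1 and -1.72 for Decr1. The changes of the 4 dehydrogenases ran from -1.95 to -1.59, and differences between them were not tested. The standard error of a single change (0.34 to 0.39) includes shifts that genes of a library share. It is therefore no measure of differences between genes. The subunit genes Hadha and Hadhb, with the shared upstream sequence above, changed to nearly the same extent, with a Hadha to Hadhb ratio of 1.04 ± 0.058 in CCl4 livers and 1.15 ± 0.027 in vehicle livers (SD, n = 3 each), without overlap.

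The 3 electron transfer genes were lower as deposited and none was called rescaled. Etfb, the β subunit of the electron transfer flavoprotein, had 93.7, 55.5 and 193 TPM in CCl4 livers, against 369, 376 and 396 TPM in vehicle livers. Etfdh, the oxidoreductase that hands those electrons to ubiquinone, had 18.7, 9.15 and 34.9 TPM in CCl4 livers, against 94.9, 97.4 and 97.0 TPM in vehicle livers. Etfdh changed most, by -2.34 ± 0.41 (limma adjusted p = 0.000822) and by -0.69 rescaled (adjusted p = 0.0847), with no overlap on either scale. Etfb changed by -1.91 ± 0.42 (rescaled -0.21) and Etfa, the α subunit, by -1.69 (rescaled 0.00).

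The peroxisomal genes were lower as deposited in all 6 cases, by -1.92 to -2.49, and 2 of the 6 stayed lower rescaled. Decr2, the peroxisomal 2,4-dienoyl-CoA reductase, had 9.13, 7.44 and 21.1 TPM in CCl4 livers, against 66.4, 67.0 and 71.6 TPM in vehicle livers. Its difference was -2.49 ± 0.36 (limma adjusted p = 0.000306), and -0.88 ± 0.21 rescaled (adjusted p = 0.00745). Acaa1b, a peroxisomal thiolase, had 30.7, 55.5 and 87.7 TPM in CCl4 livers, against 279, 241 and 277 TPM in vehicle livers. All CCl4 livers were below the vehicle livers on both scales, with -2.30 ± 0.38 (limma adjusted p = 0.000641) and -0.61 ± 0.21 rescaled (adjusted p = 0.0344). Crot, which moves medium-chain products out of the peroxisome as carnitine esters, changed by -2.26 (rescaled -0.57), Ehhadh, the bifunctional enzyme, by -2.17 (rescaled -0.52), Eci2 by -1.92 (rescaled -0.26) and Acaa1a by -1.92 (rescaled -0.29). Acaa1a and Acaa1b are close paralogs, so reads shared between them could be split in either way.

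Both ketone body genes were lower as deposited, and Acat1 alone rescaled. Acat1, the mitochondrial acetoacetyl-CoA thiolase, had 14.4, 11.4 and 26.9 TPM in CCl4 livers, against 77.8, 79.6 and 79.8 TPM in vehicle livers. It was lower on both scales, by -2.20 ± 0.33 (limma adjusted p = 0.000394) and -0.55 ± 0.17 rescaled (adjusted p = 0.0216). Bdh1, which interconverts acetoacetate and 3-hydroxybutyrate, had 21.9, 8.12 and 40.6 TPM in CCl4 livers, against 55.2, 63.1 and 60.0 TPM in vehicle livers, and changed by -1.55 (limma adjusted p = 0.0124) but 0.09 rescaled (adjusted p = 0.847). Without CCl4 replicate 1, Bdh1 stood at -1.63 (limma adjusted p = 0.0537).

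Set side by side, the 6 genes of the peroxisomal list had a lower median change than the 17 mitochondrial ones on both scales. The thioesterases, some of them mitochondrial or peroxisomal, were kept apart in their own list. The median change was -2.21 for the 6 peroxisomal genes, -1.89 for the 17 mitochondrial genes and -1.87 for the 2 ketone body genes. The difference of medians, peroxisomal minus mitochondrial, was -0.32, and it was -0.28, -0.13 and -0.32 in the 3 CCl4 livers set one at a time against the mean of the vehicle livers (SD 0.10). The ketone body genes minus the mitochondrial genes gave 0.02, with 0.19, -0.12 and 0.05 in the 3 livers (SD 0.15). Rescaled, the differences were -0.33 and -0.02, since a common factor cancels within a library. Among other genes of the pathway, described below, the gap was smaller. As deposited the median change was -2.14 for 14 other peroxisomal genes and -1.96 for 16 other mitochondrial genes. Rescaled, the medians were -0.48 and -0.44. These are descriptions without a test, since genes are not replicates. Within-library ratios of single pairs, chosen after their values were seen, did not all run the same way. Of 5 peroxisomal to mitochondrial pairs, Decr2 to Decr1 alone lay lower in CCl4 livers without overlap. The Ehhadh to Hadha ratio averaged 0.900 ± 0.11 in CCl4 livers and 1.06 ± 0.099 in vehicle livers, and Crot to Cpt1a 4.03 ± 1.22 and 4.81 ± 0.16 (SD, n = 3 each), with overlap. The mean ratio was higher in CCl4 livers, with overlap, for Eci2 to Eci1 (1.39 ± 0.20 in CCl4 livers, 1.26 ± 0.14 in vehicle livers) and for Acaa1b to Acaa2 (0.669 ± 0.39 in CCl4 livers, 0.628 ± 0.045 in vehicle livers). The Decr2 to Decr1 ratio, peroxisomal to mitochondrial dienoyl-CoA reductase, was 0.934, 1.058 and 1.04 in CCl4 livers and 1.69, 1.74 and 1.79 in vehicle livers. Between the ketone body genes, the Bdh1 to Acat1 ratio was 1.52, 0.712 and 1.51 in CCl4 livers and 0.709, 0.793 and 0.752 in vehicle livers, so CCl4 replicate 2 lay with the vehicle livers.

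**Figure D2:**
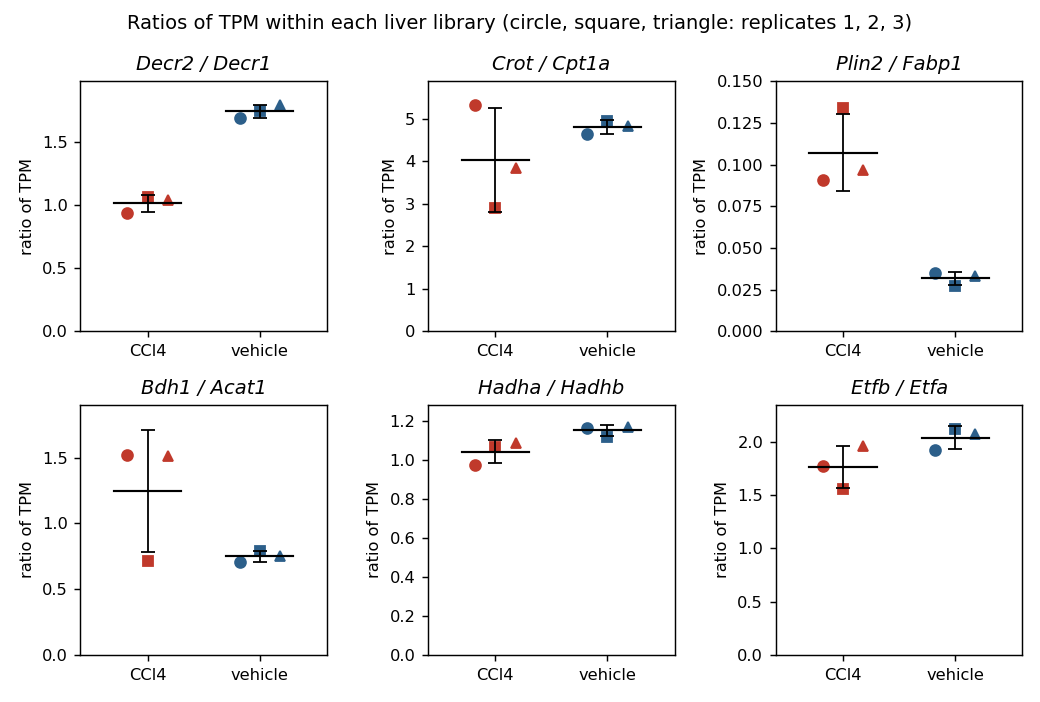
Ratios of TPM between pairs of genes within each liver library, which do not change with the scaling. Circles, squares and triangles are replicates 1, 2 and 3, and bars are means ± SD of 3 libraries. Decr2 to Decr1 lies at 0.934 to 1.058 in CCl4 livers and 1.69 to 1.79 in vehicle livers, and Plin2 to Fabp1 lies at 0.091 to 0.134 in CCl4 livers and 0.027 to 0.035 in vehicle livers.

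The thioesterases and the remaining targets split. Among the acyl-CoA thioesterases, which free fatty acids from CoA, only Acot1, the cytosolic enzyme, was called as deposited. It had 3.19, 2.31 and 9.66 TPM in CCl4 livers, against 15.2, 13.4 and 14.8 TPM in vehicle livers, a difference of -1.54 ± 0.37 (limma adjusted p = 0.00435) and -0.08 rescaled. Acot2, the mitochondrial enzyme, had 1.79, 1.08 and 2.32 TPM in CCl4 livers, against 1.19, 0.730 and 1.12 TPM in vehicle livers. The groups overlapped, at 0.42 ± 0.21 (limma adjusted p = 0.1), but Acot2 was called higher rescaled, at 1.82 ± 0.26 (adjusted p = 0.00107). Acot4, a peroxisomal enzyme, had 2.55, 1.88 and 5.42 TPM in CCl4 livers and 6.10, 3.04 and 4.53 TPM in vehicle livers (-0.42, adjusted p = 0.241 by limma; 1.02 rescaled, adjusted p = 0.0164). Acot3, also peroxisomal, had 0.530, 0.490 and 3.42 TPM in CCl4 livers and 2.04, 0.290 and 1.53 TPM in vehicle livers (0.01, adjusted p = 0.988 by limma; 1.10 rescaled, adjusted p = 0.113). Acot2 was called higher as deposited without CCl4 replicate 2 (0.60, limma adjusted p = 0.0192), and Acot4 lower without CCl4 replicate 3 (-0.76, limma adjusted p = 0.0325). Acot1 to Acot4 are close paralogs at low levels, and reads may be shared between them.

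The only gene called higher as deposited was Fgf21, the hormone that liver releases in fasting and under stress. It had 2.15, 1.48 and 2.81 TPM in CCl4 livers, against 0.220, 0.130 and 0.380 TPM in vehicle livers. Every CCl4 liver was above every vehicle liver, with a ratio of means of 8.82, a difference of 1.32 ± 0.20 (log2(TPM + 1), limma adjusted p = 0.000394) and 2.96 rescaled. It passed the filter on low values only through its CCl4 libraries, so leaving out any of those 3 removes it from the test. Pdk4, the kinase that shuts pyruvate dehydrogenase when fat is burned, had 3.54, 4.89 and 8.99 TPM in CCl4 livers and 10.2, 3.53 and 7.05 TPM in vehicle livers (-0.21, adjusted p = 0.627 by limma; 1.36 rescaled, adjusted p = 0.0103).

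Plin2 and Fabp1, whose promoters are printed above, moved apart. Plin2 had 90.1, 75.2 and 170 TPM in CCl4 livers, against 164, 154 and 170 TPM in vehicle livers, with overlap, at -0.63 ± 0.35 (limma adjusted p = 0.137) and 1.07 ± 0.16 rescaled (adjusted p = 0.00123). Its deposited value rested on CCl4 replicate 3, without which Plin2 was called lower, at -0.97 (limma adjusted p = 0.000779). Fabp1 had 993, 562 and 1750 TPM in CCl4 livers, against 4697, 5610 and 5151 TPM in vehicle livers, at -2.37 ± 0.37 (limma adjusted p = 0.000504) and -0.66 rescaled (adjusted p = 0.0549). The Plin2 to Fabp1 ratio was 0.091, 0.134 and 0.097 in CCl4 livers, above 0.035, 0.027 and 0.033 in vehicle livers. Angptl4, a secreted inhibitor of lipoprotein lipase, had the largest deposited change of the 37. Rescaled, its -1.34 was the lowest value of the 37. Fgf21 (2.96), Acot2 (1.82) and Pdk4 (1.36) then lay further from 0, but on the side of the median of all genes, 0.85. Angptl4 had 4.70, 3.74 and 4.07 TPM in CCl4 livers, against 20.1, 61.8 and 36.4 TPM in vehicle livers, which are spread widely. The difference was -2.83 ± 0.35 (limma adjusted p = 0.000149) and -1.34 ± 0.41 rescaled (adjusted p = 0.0213). Vnn1, a pantetheinase, changed by -1.50 (limma adjusted p = 0.00118; rescaled -0.30).

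**Figure D3:**
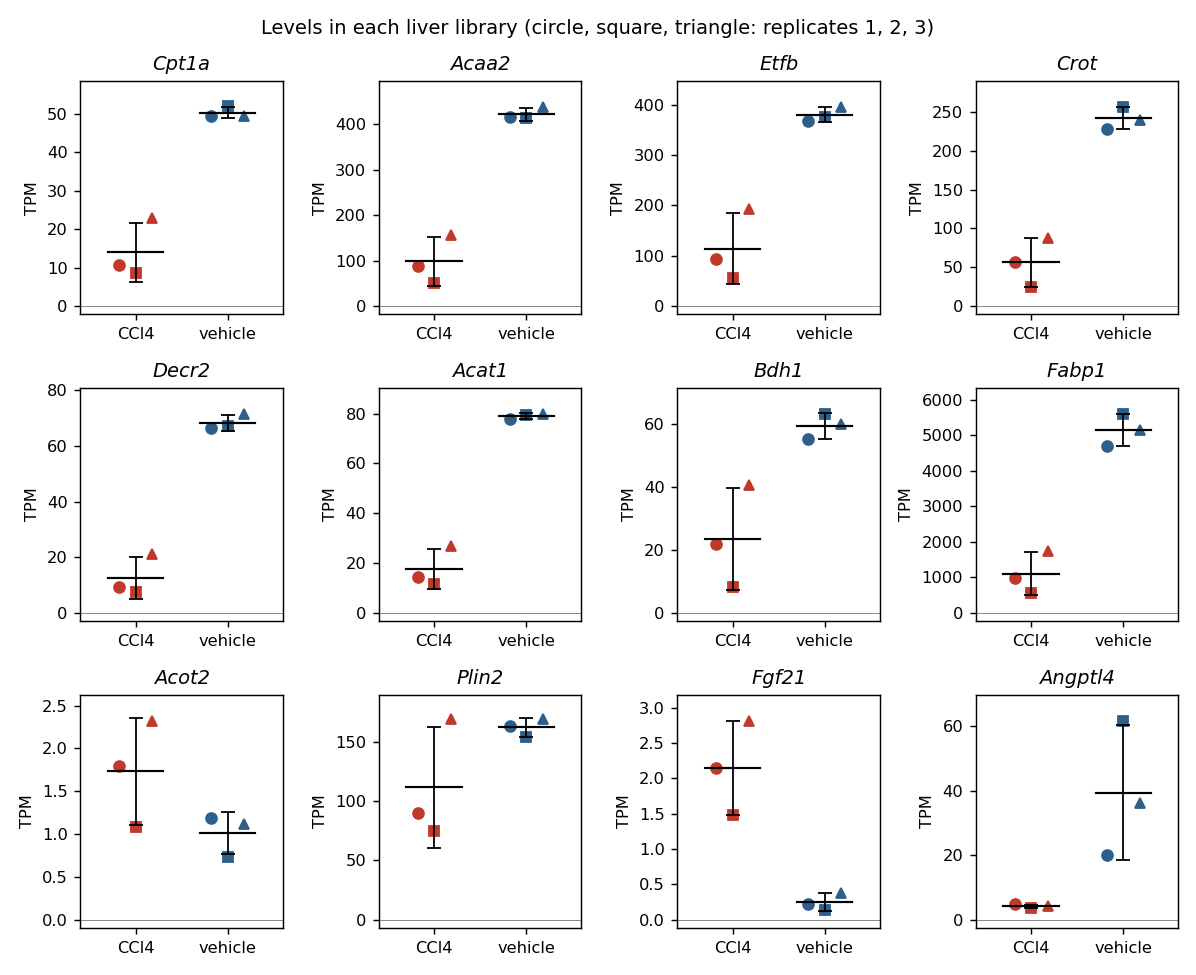
TPM as deposited of 12 of the 37 genes in each liver library; circles, squares and triangles are replicates 1, 2 and 3, and bars are means ± SD of 3 libraries. Fgf21 lies above the vehicle livers in all 3 CCl4 livers, Plin2 and Acot2 overlap, and the others lie below; after rescaling Plin2 and Acot2 lie above the vehicle livers without overlap, Cpt1a, Etfb and Bdh1 overlap, and Bdh1 changes sign to 0.09.

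The CCl4 livers differed among themselves in a common order. In 32 of the 37 genes CCl4 replicate 3 was highest and replicate 2 lowest as deposited, and 27 genes had this order rescaled. The share of all genes with this order was not worked out. Mitochondrial transcripts and their copies held 82.1%, 80.2% and 68.1% of TPM in CCl4 replicates 1, 2 and 3, so replicate 3 left most to all other genes. The ratio of replicate 3 to replicate 2 had a median of 2.88 over the 37 genes, and 1.79 rescaled. Of 10 hepatocyte markers, 10 were lower with CCl4 as deposited, and 5 were lower and 1 higher rescaled. As deposited they summed to 18149, 21331 and 42659 TPM in CCl4 replicates 1, 2 and 3. Replicate 3 was thus highest, as for the members, but replicate 1 was lowest. Rescaled, the hepatocyte sums of CCl4 livers (101377 to 133764) overlapped those of vehicle livers (125616 to 133523). The sums of Kupffer cell, monocyte and neutrophil, endothelial and stellate cell markers ran the opposite way, higher with CCl4 and, among the CCl4 livers, lowest in replicate 3. Kupffer cell markers summed to 125 to 328 TPM in CCl4 livers and 28.5 to 73.4 TPM in vehicle livers, and 10 of 10 were higher. Monocyte and neutrophil markers summed to 144 to 746 TPM in CCl4 livers and 10.2 to 18.1 TPM in vehicle livers, endothelial markers to 165 to 537 and 27.7 to 34.8 TPM, and stellate cell markers to 82.3 to 172 and 7.31 to 10.5 TPM. The part of these cells in the liver values was not tested. In bulk liver, fewer hepatocytes and less RNA of a gene per hepatocyte cannot be told apart.

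Among 84 other genes of the pathway, the pattern was broad and again hung on the scale. As deposited 59 of 75 genes that passed the filter were lower and 6 higher, and rescaled 21 were lower and 16 higher. Over all genes tested the shares were 51.1% lower and 10.3% higher as deposited, and 4.2% lower and 66.8% higher rescaled. The 7 genes of ω-oxidation were all lower as deposited and 5 of the 7 rescaled. Over all the other pathway genes the largest falls were Cyp4a12a and Cyp4a12b, fatty acid ω-hydroxylases. Cyp4a12a had 4.76, 6.12 and 20.7 TPM in CCl4 livers, against 101, 180 and 135 TPM in vehicle livers (-3.82, limma adjusted p = 0.000118; rescaled -2.26). Cyp4a12b changed by -3.26 (rescaled -1.999), and the 2 genes are near-identical paralogs whose reads cannot be cleanly separated. The largest rises were Fabp4 and Cd36, a fatty acid binding protein and a fatty acid translocase. Fabp4 had 21.7, 61.5 and 14.8 TPM in CCl4 livers, against 2.07, 1.35 and 1.62 TPM in vehicle livers (3.40, limma adjusted p = 0.000125; rescaled 5.22). Cd36 had 31.96, 75.1 and 25.5 TPM in CCl4 livers, against 6.16, 6.55 and 6.42 TPM in vehicle livers (2.46, limma adjusted p = 0.000343; rescaled 4.19). In both genes replicate 2 was the highest CCl4 liver, the one in which oxidation genes were mostly lowest and endothelial and monocyte markers highest. Whether those cells took part in the rises of Fabp4 and Cd36 was not tested.

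In skin CX3CR1+ cells no member was called. Of the 37 genes, 32 passed the filter and 0 were called, and at an unadjusted p under 0.05 also 0 were found. Acaa1b, Acot3, Acot4, Fgf21 and Vnn1 were below the filter. Across all 13767 genes 0 were called (0% in either direction), with 175 lower and 113 higher at an unadjusted p under 0.05 by limma. The groups overlapped for all 32 genes, where 2.72% of all genes lay lower and 2.56% higher without overlap. The most abundant was Plin2, with 986, 779 and 335 TPM in CCl4 skin cells, against 820, 998 and 607 TPM in vehicle skin cells. Etfb had 111, 254 and 185 TPM in CCl4 skin cells and 116, 80.3 and 332 TPM in vehicle skin cells. Etfa had 85.7, 140 and 194 TPM in CCl4 skin cells and 101, 109 and 72.6 TPM in vehicle skin cells. In each of these genes the groups overlapped.

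The lowest p was that of Angptl4, at 1.88 ± 0.98 (limma adjusted p = 1). It had 70.0, 326 and 35.5 TPM in CCl4 skin cells, against 76.8, 18.8 and 10.0 TPM in vehicle skin cells, and the high library, CCl4 replicate 2, also had adipocyte markers summing to 3071 TPM, against 41.0 to 746 TPM in the other 5 libraries. Whether fat cells took part was not tested. Cpt2 had 3.49, 2.80 and 9.94 TPM in CCl4 skin cells and 9.60, 8.30 and 7.90 TPM in vehicle skin cells (-0.74 ± 0.67, limma adjusted p = 1). Creb3l3 had 0.120 and 7.80 TPM in CCl4 replicates 1 and 2, was listed at 0 in CCl4 replicate 3, and had 1.56, 3.75 and 3.88 TPM in vehicle skin cells (-0.86 ± 0.85, limma adjusted p = 1). In each of these 3 genes 1 CCl4 library lay apart from the other 2. Without CCl4 replicate 3, the library that lacked macrophage markers, 0 of 31 members tested were called.

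**Figure D4:**
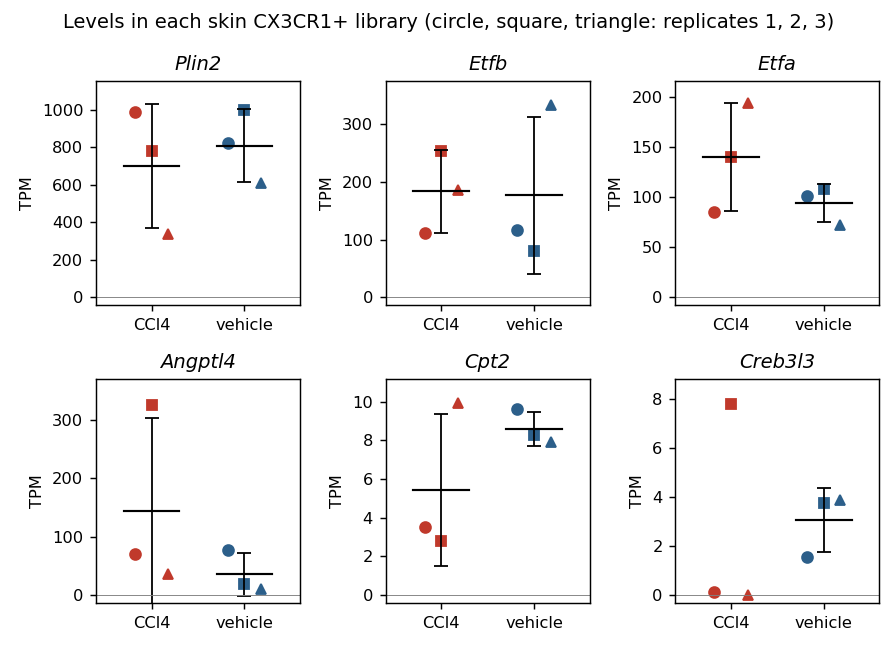
TPM of the 3 most abundant members and the 3 with the lowest p in each skin CX3CR1+ library; circles, squares and triangles are replicates 1, 2 and 3, and bars are means ± SD of 3 libraries (none for a group with a library at 0). The groups overlap in all 6 genes, and CCl4 replicate 2 stands alone at 326 TPM in Angptl4.

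The effect of CCl4 in liver was set against that in skin in 1 limma fit of 12 libraries over 9255 genes. As deposited 0 of the 32 members tested in both tissues were called, where 0.0648% of all genes were lower and 0.151% higher in liver. At an unadjusted p under 0.05 by limma, 18 of the 32 members were found, all lower in liver. At that threshold 1428 of all 9255 genes were lower and 444 higher in liver. Rescaled, 2 members were lower and 2 higher at that threshold, where 53 of all 9237 genes were lower and 2313 higher. As deposited, the members nearest to a call were Decr2 at -2.61 ± 0.55 (adjusted p = 0.0641 by limma), Angptl4 at -4.71 (adjusted p = 0.0774) and Acadvl at -2.27 (adjusted p = 0.0792). On the rescaled values these 3 stood at -0.99, -3.21 and -0.57 (limma adjusted p = 0.188, 0.116 and 0.427). Rescaled, Acot2 was called higher in liver, at 2.03 ± 0.51 (adjusted p = 0.0403 by limma), where 0.0541% of 9237 genes were lower and 5.88% higher. That call was lost when any 1 of the 6 liver libraries was left out, which gave 0 members called in either direction. Leaving out liver CCl4 replicate 3, skin CCl4 replicate 1 or skin vehicle replicate 3 gave 4, 5 and 4 members called lower in liver as deposited. The shares of all genes called in those fits are not given here. Tissue, assay and strain differ together, so they cannot be told apart.

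With vehicle, most of the genes had higher levels in liver and a few in skin cells. In 25 of the 37 genes all 3 vehicle livers were above all 3 vehicle skin libraries, in 2 they were below, and in 10 they overlapped. The share of all genes with each pattern was not worked out, so these counts do not set the 37 apart from other genes. They use TPM as deposited, of which mitochondrial transcripts and their copies held 25.7% to 28.4% in vehicle livers and 2.33% to 4.66% in vehicle skin libraries. Fabp1 averaged 5153 TPM in liver, against 7.06 TPM in 1 vehicle skin library and a listed 0 in the other 2. Acaa1b averaged 266 TPM in liver and 1.47 TPM in skin cells, while its paralog Acaa1a averaged 49.1 and 56.0 TPM, with overlap. Plin2 was the other way round, at 163 TPM in liver and 808 TPM in skin cells, as was Acot2, at 1.01 and 2.04 TPM. These are levels in TPM, per length, without a test.

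**Figure D5:**
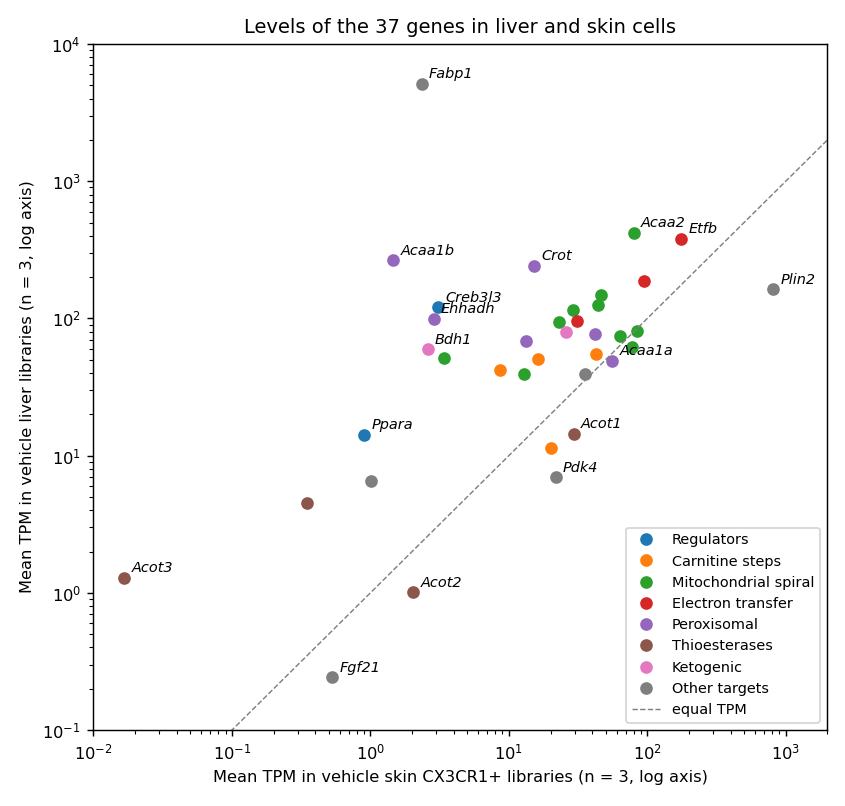
Mean TPM of each of the 37 genes in 3 vehicle liver libraries (y axis, log) against 3 vehicle skin CX3CR1+ libraries (x axis, log), coloured by role; the dashed line marks equal TPM. Fabp1 and Acaa1b lie far above the line, and Plin2 far below it.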

How the data were processed

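RNA was measured in 12 libraries, 3 in each of 4 groups. The authors deposited TPM for 57180 genes, with fastp, HISAT2, StringTie, RSEM and GRCm39 named, per the submitters' processing notes, without versions or roles. TPM holds no read depth, so depth is unknown and no counting interval is given; an exact 0 may also be a failed estimate. From the deposited TPM, log2(TPM + 1) was tested with limma 3.58.1 (eBayes with trend, two-sided) in R 4.3.3, in each tissue alone, keeping genes that reached TPM 1 in 3 or more of 6 libraries, with Benjamini-Hochberg adjustment over all genes tested and calls under 0.05. Differences are CCl4 minus vehicle. Rescaled values leave out 37 mitochondrially encoded genes and 11 pseudogenes matching them by blastn 2.17.0 (at least 95% identity over 90% of the transcript). The design text calls the replicates biological. Members and lists were chosen with earlier results of these data known. Every library's value is given for Ppara, for the most abundant and the lowest-p member of each role list, for members called higher or not called in liver, and for 3 lowest-p and 3 most abundant members in skin; of the other pathway genes, the 2 largest rises and falls. Alternatives were other pseudocounts, filters, scalings, a replicate block, robust eBayes, 1 fit over all libraries and leaving out libraries. The tests were tried on simulated data.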

Additional observations from a re-analysis of the deposited data

How the results depend on the processing

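The count of 31 liver members lower as deposited stayed within 1.5 times under pseudocounts of 0.1 and 5, a filter at TPM 5, no filter, median-ratio scaling, robust eBayes and 1 fit over all libraries (24 to 31), and was 28 to 33 when single libraries were left out. It was 4 rescaled, 4 rescaled with a replicate block, and 1 to 10 rescaled with single libraries left out. Members higher in liver, 1 as deposited, were 0 with a filter at TPM 5, which removes Fgf21, 2 with median-ratio scaling, 5 rescaled, 6 rescaled with a replicate block, 0 to 1 without single libraries and 3 to 7 rescaled without them. Rescaled, Crat stood at 0.45, Acadl at 0.077, Etfa at 0.00033, Acot4 at 1.02, Bdh1 at 0.093, Pdk4 at 1.36 and Plin2 at 1.07, with the opposite sign to the deposited scale. The medians' difference, peroxisomal minus mitochondrial, was -0.37 to -0.21 and ketone body minus mitochondrial -0.10 to 0.09 without single libraries. Members with a lower effect in liver than in skin, 0 at first, were 1 with a pseudocount of 0.1 (Decr2), 3 with a replicate block (Angptl4, Acadvl and Decr2) and 0 to 5 without single libraries. Members with a higher effect were 1 rescaled, 2 rescaled with a replicate block and 0 rescaled without any single liver library. Shares of all genes called are given above only for the deposited and rescaled fits to all libraries, so these counts do not set the members apart. The rescaled fits with a replicate block or without single libraries were chosen after seeing the data, and the cause of these differences was not tested. For libraries with the same replicate number, used for the block, deviations were correlated at r = -0.04, 0.08 and 0.07 in liver. In skin r was 0.59, 0.09 and 0.35. The skin libraries that both carry library number 4 (CCl4 replicate 3, vehicle replicate 2) had r = -0.18. The labels do not say that the numbers pair samples, and they were not taken to. In skin these values cannot settle it, since correlations of the remaining pairs are not given. The block left 31 lower and 1 higher in liver and 0 in skin. Depth is unknown, so precision is limited by 3 libraries per group.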
